A study of Mus musculus with 36 samples.

Results

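The genes described here are 8 ERK feedback inhibitors, chosen by name: the Sprouty genes Spry1, Spry2 and Spry4, the Spred genes Spred1 and Spred2, and the dual-specificity phosphatase genes Dusp4, Dusp5 and Dusp6. Each count table held 7 of them, among 20181 genes for Lrig1 genetically labelled (GL) cells and 22587 for Lgr5 GL cells, and 6 were in both. Spry4 was analysed only in Lgr5 GL cells and Dusp4 only in Lrig1 GL cells. Both populations came from mice with an EGFP-ires-CreERT2 cassette at Lrig1 or Lgr5 and a Rosa26-fl/STOP/fl-tdTomato reporter. In the Lrig1 line, Cre marks stem cells of the junctional zone of the upper hair follicle (HF). In the Lgr5 line it marks stem cells of the lower HF. All groups, the unwounded one included, received 1 topical dose of hydroxytamoxifen on the tail at 6 to 8 weeks of age, so every library holds descendants of cells labelled before injury. The first full-thickness wound, a 2 mm punch, followed 1 week later at 7 to 9 weeks of age. Sorted tdTomato-positive cells were profiled unwounded (0w), at 1, 2, 4 and 8 weeks after the first wound (1w, 2w, 4w and 8w pw1), and 1 week after a second wound made over the first at week 8 (1w pw2, week 9). Each of the 12 groups had 3 libraries. No unwounded group of later age was among them. In contrasts with 0w, wounding therefore cannot be told apart from age and time since labelling. The same holds for contrasts between later stages, such as 1w pw2 (week 9) against 1w pw1 (week 1). The sorted area took in the wound bed and more distant follicles, so near and far cells were measured together.

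Growth factor receptors signal through Ras, Raf and MEK to the kinase ERK, which switches on genes for migration and division in epidermis. ERK also induces its own inhibitors. Sprouty and Spred proteins act upstream, between the receptor and Raf. Spred proteins bring the Ras inhibitor neurofibromin to the membrane. The Dusp proteins act on ERK itself by removing its activating phosphates: Dusp6 works in the cytoplasm, and Dusp4 and Dusp5 in the nucleus. Because ERK drives them, their transcripts are widely used as a readout of the pathway, but they report neither ERK activity nor protein level directly.

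The stretches upstream of 3 of these genes are shown because the growth-factor-responsive elements through which early response genes are switched on lie in such windows. RefSeq promoter windows of GRCm38.p6 matched 6 of the 8 genes by symbol (Spry1, Spry2, Spred1, Spred2, Dusp5 and Dusp6). The 250 bases before each start were searched on both strands for 4 motifs. These were the CArG box bound by serum response factor, the AP-1 site TGANTCA, the cAMP response element TGACGTCA and the ETS site CCGGAA. Printed 5′ to 3′ on the gene's strand, from 200 to 41 bases before the start, are Dusp5 (chr19:53528945-53529104, plus strand), Dusp6 (chr10:99263031-99263190, plus strand) and Spry2 (chr14:105896860-105897019, minus strand), with motif matches in capitals.
Dusp5: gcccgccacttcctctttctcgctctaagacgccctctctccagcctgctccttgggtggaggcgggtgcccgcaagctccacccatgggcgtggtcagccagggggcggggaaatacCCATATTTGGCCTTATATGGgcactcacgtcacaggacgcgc
Dusp6: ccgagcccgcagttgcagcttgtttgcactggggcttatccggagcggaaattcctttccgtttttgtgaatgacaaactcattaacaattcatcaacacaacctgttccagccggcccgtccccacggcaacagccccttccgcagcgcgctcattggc
Spry2: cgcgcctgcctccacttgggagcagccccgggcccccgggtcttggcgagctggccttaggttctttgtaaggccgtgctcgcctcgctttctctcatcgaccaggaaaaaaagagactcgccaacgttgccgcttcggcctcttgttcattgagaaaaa
The capitals in Dusp5 are 2 CArG boxes side by side, CCATATTTGG at 82 to 73 bases and CCTTATATGG at 72 to 63 bases before the start. A CArG box was present in 1.47% of all 32851 promoter windows of the same length, and 2 or more in 0.0183% (6 windows). None of the other 5 windows held a CArG box. None of the 6 held the AP-1 site (6.75% of all windows), the cAMP response element (1.55%) or the ETS site CCGGAA (12% of all windows). Shorter stretches such as GGAA, which all 3 printed sequences contain, were not counted. These are matches of letters only, and no binding was measured.

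Lrig1 GL libraries held 765252 to 3365666 counts and Lgr5 GL libraries 1297798 to 6960537, so by read depth low genes were measured more coarsely in the former. Per the study's methods, each library was made from a small number of sorted cells, with amplification. Reads were not counted per molecule, so limits from depth and from few cells cannot be told apart. Levels are given as CPM, read counts scaled to a common library size with the trimmed mean of M-values. By total counts alone, without that scaling, a count of 3 corresponded to 0.891 to 3.92 CPM in Lrig1 GL libraries. For Lgr5 GL libraries it was 0.431 to 2.31 CPM. The scaling multiplied library sizes by 0.822 to 1.16 (Lrig1 GL) and 0.669 to 1.23 (Lgr5 GL). On the scaled levels given here, a count of 3 can therefore lie above or below its unscaled value. Keratinocyte markers were high throughout. Their sum over 10 genes was 27900 to 38400 CPM in the Lrig1 table and 12500 to 39800 CPM in the other. In Lgr5 GL cells it was 14500 to 25000 CPM at 2w pw1 and 12500 to 15700 CPM at 4w pw1, against 29400 to 36900 CPM at 0w. Bulge markers (7 genes, Fgf18 among them) summed there to 15300 to 21500 CPM at 0w. They were lower at 1w pw1 (4560 to 11600 CPM), 2w pw1 (6460 to 8660 CPM) and 4w pw1 (3880 to 6360 CPM). In the Lrig1 table they summed to 5190 to 9130 CPM at 0w and to less at every later time. The ranges there included 525 to 1780 CPM at 1w pw1, 2170 to 3210 CPM at 8w pw1 and 648 to 1770 CPM at 1w pw2. The part of these shifts in the members' changes was not tested. Of 9 immune markers, 3 were in the Lrig1 table and 2 in the Lgr5 table. They summed to 0 to 17 CPM and 0 to 33.2 CPM, and Cd74 was at 0 in 12 and 10 of 18 libraries. Fibroblast markers (6 of 8 and 8 of 8 in the tables) summed to 2.5 to 89.3 CPM in the Lrig1 table and 57 to 394 CPM in the Lgr5 table. In the Lrig1 table the 8w pw1 group stood apart. Mitochondrial transcripts made up 10.9 to 14.4% of their counts against 3.15 to 5.38% at 0w, and their AT-rich genes were high relative to GC-rich ones. For this, each gene's log2 level was taken relative to its mean over the 18 libraries. The median over the quartile of genes lowest in GC, minus that over the quartile highest, was then taken per library. It was 0.86 to 1.1 at 8w pw1 and 0.35 to 1.15 at 1w pw2, against -0.71 to -0.66 at 0w. A single transcript, Gm12415, took 12 to 52.1% of the counts of Lgr5 GL libraries. The labels do not tie libraries to animals, so the tests measure the spread between these libraries. In sorted bulk RNA, fewer cells of a type and less RNA per cell cannot be told apart.

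Levels can be compared between the genes only per kilobase of exon. Spry2 had the highest level in both populations, at a mean over 18 libraries of 53.2 CPM per kb for Lrig1 GL and 82.1 CPM per kb for Lgr5 GL cells. Dusp6 came next, at 13.3 and 27.6 CPM per kb. In Lrig1 GL cells Spred1 (9.26 CPM per kb), Spred2 (4.95), Spry1 (4.93) and Dusp5 (3.28) followed. The Lgr5 GL order was Spry1 (12.7 CPM per kb), Spred1 (5.03), Spred2 (3.98) and Dusp5 (3.07). Spry4, at 0.524 CPM per kb in Lgr5 GL cells, and Dusp4, at 0.366 CPM per kb in Lrig1 GL cells, lay far below the rest. The filter on low counts kept 6 members in Lrig1 GL cells, where Dusp4 failed it, and all 7 in Lgr5 GL cells.

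Spry2, which blocks receptor signalling upstream of Ras, is the member whose Lrig1 GL time course drew attention to these genes. Its Lrig1 GL values are therefore given as a description. Where its calls are counted below they were known when the genes were chosen, and they support nothing. At 0w the 3 Lrig1 GL libraries had 67.3, 48.7 and 56.6 CPM. At 1w pw1 they had 78.2, 86.5 and 87 CPM, at 2w pw1 83, 58.8 and 87.9 CPM, and at 4w pw1 40.1, 63.1 and 49.1 CPM. At 8w pw1 the values were 272, 176 and 184 CPM, and at 1w pw2 they were 243, 116 and 201 CPM. The 8w pw1 and 1w pw2 libraries did not overlap those of any earlier time, and they overlapped each other. The log2 fold change against 0w was 1.87 ± 0.33 (SE, 3 libraries a group) at 8w pw1 and 1.70 ± 0.33 at 1w pw2, and 8w pw1 was 2.06 ± 0.34 above 4w pw1. With the GC trend of each library removed, the changes against 0w were 1.44 at 8w pw1 and 1.31 at 1w pw2. The high levels thus coincided with the libraries rich in AT-rich transcripts and, at 8w pw1, in mitochondrial ones, and the part of either in the rise was not tested. The calls of Spry2 against 0w at both times were kept when mitochondrial genes were left out of the library sizes, and both were lost with the GC trend removed, with surrogate variables and with the replicate block.

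Before wounding, Spry2 was already high in Lgr5 GL cells and had its lowest mean at 4w pw1. Its values were 197, 175 and 227 CPM at 0w, 175, 222 and 187 CPM at 1w pw1, and 84.8, 137 and 189 CPM at 2w pw1. They were 91.1, 125 and 91.8 CPM at 4w pw1, 232, 159 and 214 CPM at 8w pw1, and 149, 250 and 176 CPM at 1w pw2. Every 4w pw1 library lay below every 0w and every 8w pw1 library. The difference at 4w pw1, a log2 fold change of -0.96 ± 0.30, did not pass the test over all genes (edgeR quasi-likelihood, adjusted p = 0.257, unadjusted p = 0.00528), and the 4w pw1 libraries, at 1297798 to 2116933 counts, included the 2 shallowest of that population. The change at 1w pw2 was -0.06 ± 0.30, so the means of 0w and 1w pw2 differed by less than the spread between libraries.

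Spry1, the closest relative of Spry2 in this set, varied widely in Lrig1 GL cells. The 0w libraries alone ran from 1.02 to 57.9 CPM, with 18.1 CPM in the remaining one, and all later libraries had 0.916 to 24.4 CPM. All 5 changes against 0w were negative, from -0.48 ± 1.13 to -1.56 ± 1.18, and none was a differentially expressed gene (DEG), defined by an adjusted p under 0.05 with a log2 fold change beyond 1 in either direction. The pattern was tighter in Lgr5 GL cells. Spry1 had 38.7, 34.7 and 57.7 CPM at 0w, then 2.93, 15.2 and 25.6 CPM at 1w pw1 and 22.4, 22.5 and 19.5 CPM at 2w pw1. Both early groups lay wholly below 0w. At 4w pw1 and 8w pw1 the libraries spread over 10.7 to 61 CPM. At 1w pw2 they had 39.8, 80.5 and 81.4 CPM, each above every library of 1w pw1. The log2 fold change of 1w pw2 against 1w pw1 was 2.19 ± 0.65 (unadjusted p = 0.00333, edgeR adjusted p = 0.124), and that of 1w pw1 against 0w was -1.57 ± 0.64 (adjusted p = 0.196). DESeq2 and the likelihood ratio test called the difference between 1w pw2 and 1w pw1, with adjusted p = 0.0126 and 0.0265. Exons of Spry1 overlap an antisense transcript, Gm42922, by up to 577 bases, and no strand setting is given for the counting.

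Spry4 in Lgr5 GL cells was near the limit of detection, with 3 of 18 libraries at 0 and 7 at 3 counts or fewer. Its highest group was 1w pw2, with 3.1, 12.8 and 4.88 CPM (24, 77 and 13 counts). The 8w pw1 libraries had 0, 0.486 and 0.752 CPM, and the 0w libraries 1.13, 2.69 and 2.4 CPM. Every 1w pw2 library was above all of these. The log2 fold change was 3.83 ± 1.46 against 8w pw1 (unadjusted p = 0.0176) and 1.73 ± 1.32 against 0w (unadjusted p = 0.205), with edgeR adjusted p = 1 against 8w pw1.

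**Figure D1:**
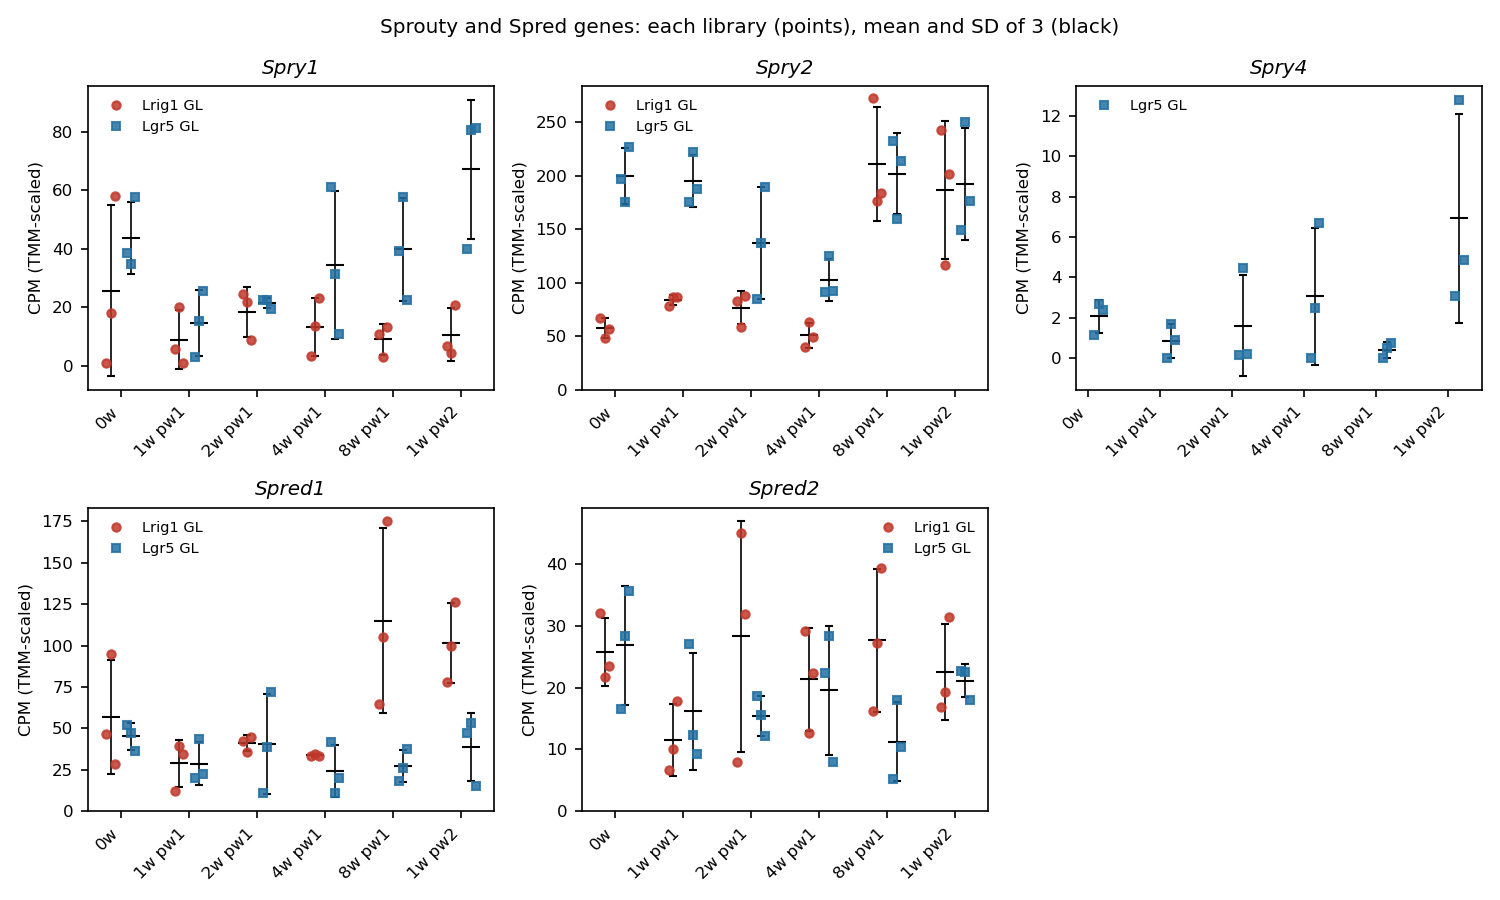
Levels of the Sprouty and Spred genes in CPM (vertical axes, linear) at each time (horizontal axes), with 1 point per library, red circles for Lrig1 GL and blue squares for Lgr5 GL cells, and black bars for the mean and SD of 3 libraries. Spry2 in Lrig1 GL cells sits at 40.1 to 87.9 CPM up to 4w pw1 and at 116 to 272 CPM at 8w pw1 and 1w pw2, while in Lgr5 GL cells it starts at 175 to 227 CPM.

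Spred1, which hands neurofibromin to Ras, had its highest means in Lrig1 GL cells at the same late times as Spry2. It had 46.9, 95 and 28.6 CPM at 0w and 12.3, 39.3 and 34.8 CPM at 1w pw1. At 2w pw1 it had 42.2, 35.7 and 45 CPM, and at 4w pw1 the 3 libraries were close together at 33.6, 34.7 and 33.4 CPM. It then had 64.7, 105 and 175 CPM at 8w pw1 and 77.8, 100 and 126 CPM at 1w pw2. Every library of 8w pw1 was above every library of 4w pw1, and every library of 1w pw2 was above every library of 1w pw1, but both late groups overlapped 0w because of its 95 CPM library. The log2 fold change was 1.76 ± 0.50 from 4w to 8w pw1 (edgeR adjusted p = 0.0581) and 1.81 ± 0.50 from 1w pw1 to 1w pw2 (adjusted p = 0.36). Against 0w it was 1.01 ± 0.49 at 8w pw1 (adjusted p = 0.225). Across the whole time course the quasi-likelihood test gave an adjusted p of 0.0675, while DESeq2 and the likelihood ratio test both called Spred1. The gene is AT-rich (41.2% GC in its longest transcript). With the GC trend of each library removed, the difference from 4w to 8w pw1 was 0.81 and that of 1w pw2 against 0w became -0.09. No late group stood above 0w for Spred1 in Lgr5 GL cells, where 0w libraries had 36.4 to 51.8 CPM, 8w pw1 libraries 18 to 37.7 CPM and 1w pw2 libraries 15.4 to 53.5 CPM.

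Spred2, the other Spred member, was lowest 1 week after the first wound in Lrig1 GL cells. Its 1w pw1 libraries had 6.6, 10.1 and 17.9 CPM, all below the 32.1, 21.7 and 23.5 CPM of 0w. All other times overlapped 0w, including 1w pw2 with 16.9, 19.3 and 31.4 CPM. At 1w pw1 the log2 fold change was -1.14 ± 0.64 (unadjusted p = 0.0951). Its lowest mean in Lgr5 GL cells was at 8w pw1, with 5.28, 18 and 10.4 CPM against 16.5, 28.3 and 35.7 CPM at 0w, a log2 fold change of -1.25 ± 0.57 (unadjusted p = 0.0437, edgeR adjusted p = 0.819). Neighbouring times in the order of mean Spred2 levels overlapped in both populations.

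Dusp6, the cytoplasmic ERK phosphatase, was highest after the second wound in Lrig1 GL cells and highest before any wound in Lgr5 GL cells. In Lrig1 GL cells it had 15.8, 50.3 and 31.8 CPM at 0w, 34.9, 21.3 and 64.1 CPM at 1w pw1, and 23.5, 25 and 0.671 CPM at 2w pw1. It had 55.9, 4.74 and 28.9 CPM at 4w pw1 and 31.8, 35.8 and 47.4 CPM at 8w pw1. At 1w pw2 the values were 135, 64.4 and 77.7 CPM, above every earlier library, although the lowest of them exceeded the highest 1w pw1 library by little. Against 0w the log2 fold change was 1.5 ± 0.87 and did not pass the test (edgeR adjusted p = 0.364). The 0w libraries of Lgr5 GL cells were almost equal at 120, 120 and 117 CPM, and those of 1w pw1 had 60.5, 54.7 and 64.5 CPM. Those of 2w pw1 had 88.4, 74.2 and 76.3 CPM. Both groups lay wholly below 0w, with log2 fold changes of -0.99 ± 0.40 (unadjusted p = 0.0245, adjusted p = 0.197) and -0.58 ± 0.40. The later groups reached across the 0w level, with 73.1 to 123 CPM at 4w pw1, 40.9 to 123 CPM at 8w pw1 and 59.7 to 151 CPM at 1w pw2.

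Dusp5, the nuclear ERK phosphatase with the paired CArG boxes shown above, was low in both populations, and after the second wound its libraries lay above 0w in one population and below 0w in the other. In Lrig1 GL cells it had 0, 6.04 and 1.27 CPM at 0w and 17.9, 10.1 and 18.8 CPM at 1w pw1. It had 2.17 to 12.1 CPM over the 9 libraries from 2w to 8w pw1, and 17.8, 13.8 and 9.14 CPM at 1w pw2. Both groups taken 1 week after a wound were therefore wholly above 0w, with log2 fold changes of 2.62 ± 1.10 at 1w pw1 (unadjusted p = 0.0289, edgeR adjusted p = 0.394) and 2.41 ± 1.09 at 1w pw2 (unadjusted p = 0.0401, adjusted p = 0.248). Neither was a DEG, and the log2 fold change of 1w pw2 against 1w pw1 was -0.2. The 0w library with 6.04 CPM made both changes against 0w smaller. Without it the log2 fold changes were 4.57 and 4.35 (edgeR adjusted p = 0.182 and 0.109). They then rested on 0w libraries at 0 and 1.27 CPM, from 0 and 2 counts.

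Dusp5 in Lgr5 GL cells had 7.01, 11 and 10.3 CPM at 0w, 14, 9.59 and 3.24 CPM at 1w pw1, and 5.2, 8.77 and 13.7 CPM at 2w pw1. It was lower at 4w pw1, with 0.969, 2.09 and 5.36 CPM, and had 23.3, 6.56 and 12.3 CPM at 8w pw1. At 1w pw2 it had 0.517, 2.32 and 0.375 CPM, from 4, 14 and 1 counts, below every library of 0w, 1w, 2w and 8w pw1. The log2 fold change at 1w pw2 was -3.05 ± 0.86 against 0w, -2.97 ± 0.86 against 1w pw1 and -3.62 ± 0.88 against 8w pw1, with unadjusted p = 0.00233, 0.00293 and 0.000647. With edgeR none of the 3 passed over all genes (adjusted p = 0.601, 0.119 and 1), whereas DESeq2 called all of them (adjusted p = 0.043, 0.0109 and 0.0143). Exons of Dusp5 overlap the antisense transcript AC137853.2 by up to 547 bases, with the same limit of unknown strand as for Spry1.

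Dusp4, the other nuclear phosphatase, was scarcely detected in Lrig1 GL cells, with 34 counts in all 18 libraries together and 11 libraries at 0. The highest were 1 library of 4w pw1 and 1 of 1w pw2, each with 10 counts (7.89 and 3.72 CPM). It was not tested.

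**Figure D2:**
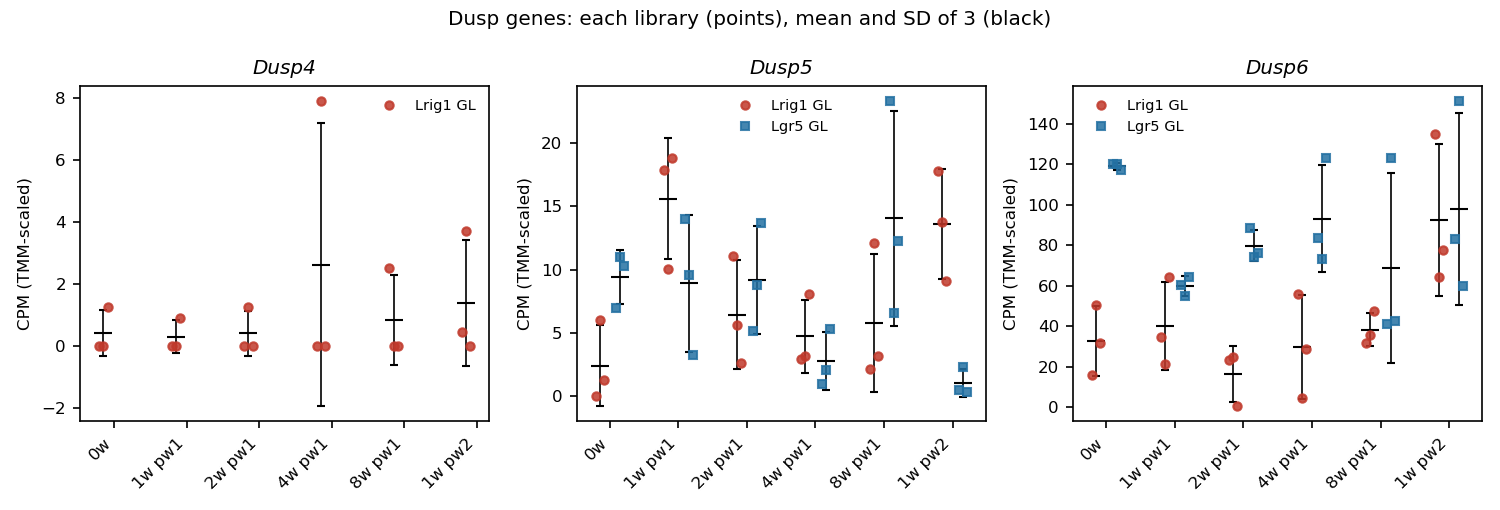
Levels of the Dusp genes in CPM (vertical axes, linear) by time, with 1 point per library, red circles for Lrig1 GL and blue squares for Lgr5 GL cells, and black bars for the mean and SD of 3 libraries, whose lower ends can pass below 0. At 1w pw2 Dusp5 sits at 9.14 to 17.8 CPM in Lrig1 GL cells and at 0.375 to 2.32 CPM in Lgr5 GL cells.

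By edgeR no member other than Spry2 was a DEG against 0w or across the time course, while other tests called Spred1 and Dusp5, as given above. Those tests called far more of all genes. Across the Lrig1 GL time course DESeq2 called 1997 and the likelihood ratio test 1999, against 232 by edgeR. For Lgr5 GL cells the numbers were 1838, 1975 and 203. In Lrig1 GL cells the edgeR time course count was 1 of 6 tested members, where 1.62% of all 14306 tested genes were DEGs. That 1 was Spry2, whose values led to the choice of the members, so nothing is read from it. Of the 7 members tested for Lgr5 GL cells 0 did, against 1.13% of 18025 genes. At an unadjusted p under 0.05, the time course test held 1 of the 5 other members of the Lrig1 table, Spred1 (20.5% of all genes). It held 3 of 7 in the Lgr5 table (16.9% of all genes), namely Spry1, Spry2 and Dusp5. At single times against 0w, the calls in Lrig1 GL cells were again those of Spry2, at 8w pw1 and 1w pw2, where 2.82% and 1.23% of all genes were DEGs. The shares at 1w, 2w and 4w pw1 were 0.217%, 0% and 0.0419%. Of the 5 other members, 1, 0, 0, 0 and 1 had an unadjusted p under 0.05 at the 5 times, Dusp5 in both cases, where 11.1%, 10.5%, 8.37%, 22.9% and 18.5% of all genes did, and DESeq2 called none. For Lgr5 GL cells no member passed at any time by edgeR, against 1.29%, 0%, 0.155%, 0% and 0% of all genes at 1w, 2w, 4w and 8w pw1 and 1w pw2. There 2, 0, 1, 1 and 1 of 7 members had an unadjusted p under 0.05, where 18.6%, 8.79%, 10.7%, 5.94% and 6.42% of all genes did, and DESeq2 called 1, Dusp5 at 1w pw2. These 5 contrasts share their 0w libraries within a population and are not independent.

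The signs of the changes against 0w are given next, whatever their tests. All 7 members tested in Lgr5 GL cells were below 0 at 1w and at 2w pw1, with median log2 fold changes of -0.73 and -0.55 beside medians over all genes of -0.08 and 0.03. Of these, Spry2, Spry4 and Dusp5 at 1w pw1, and Spry4, Spred1 and Dusp5 at 2w pw1, turned positive under some alternative settings. Members with all 3 libraries below all 0w libraries numbered 2 at each of these times (Spry1 and Dusp6), where 9.8% and 5.74% of all genes did so. Lrig1 GL counts above and below 0 were 3 and 3 at 1w and at 2w pw1, 1 and 5 at 4w pw1, 5 and 1 at 8w pw1, and 4 and 2 at 1w pw2, where the median was 1.16 against -0.06 over all genes. At 1w pw2, 3 of 6 (Spry2, Dusp5 and Dusp6) had all libraries above 0w, beside 13.9% of all genes. The count includes Spry2, which was known to be high there.

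**Figure D3:**
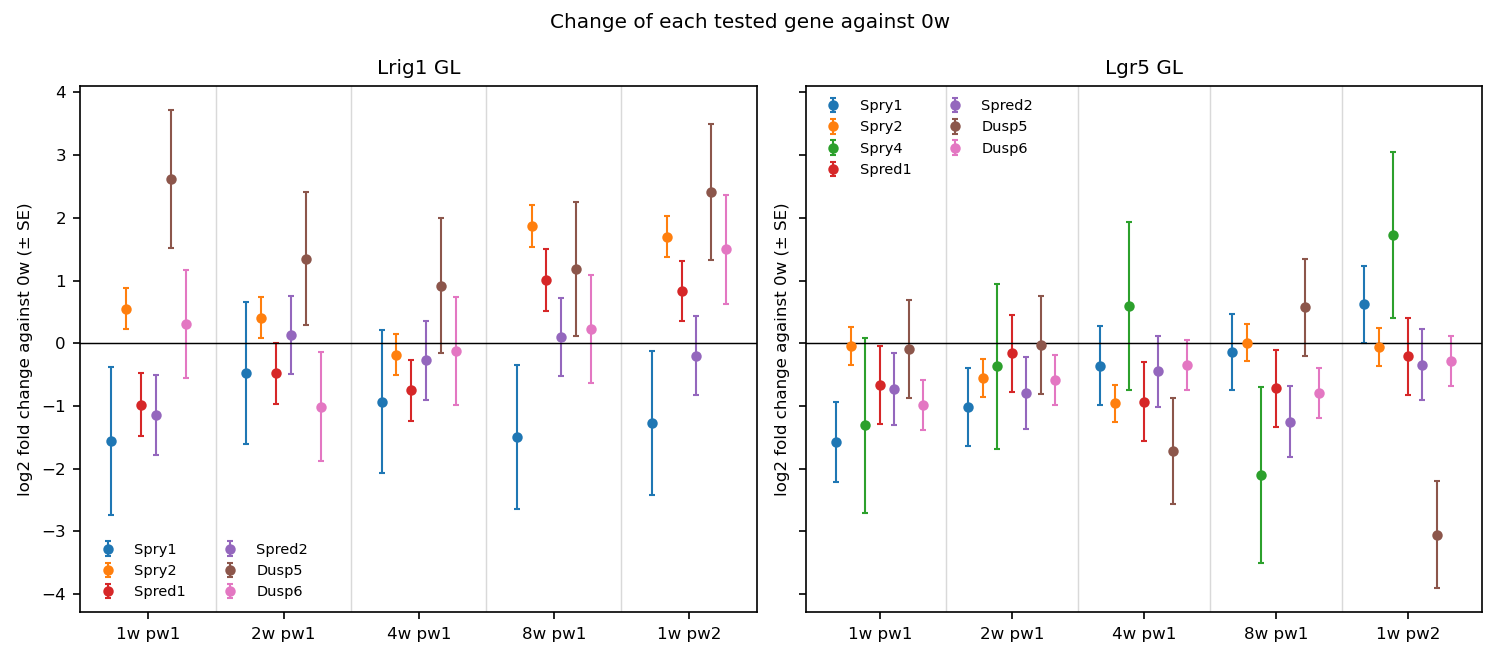
Log2 fold change against 0w (vertical axis) with its SE for each tested member at each later time, Lrig1 GL cells on the left and Lgr5 GL cells on the right, from the quasi-likelihood fit. In Lgr5 GL cells all points at 1w and 2w pw1 lie below 0, and Dusp5 lies at -3.05 at 1w pw2, where it lies at 2.41 in Lrig1 GL cells.

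Healed and wounded stages were also compared with each other, at an adjusted p under 0.05. These stages also differ in age and time since labelling. From 4w to 8w pw1, 3.74% of all genes passed for Lrig1 GL and 0.327% for Lgr5 GL cells, and the 1 member past it was Spry2 in Lrig1 GL cells, a contrast of the values that chose it. At an unadjusted p under 0.05 this contrast also held Spred1 in Lrig1 GL cells (22.1% of all genes), and Spry2 and Dusp5 for Lgr5 GL cells (8.89% of all genes). Between 1w pw2 and 1w pw1 no member passed by edgeR, against 0% and 0.266% of all genes. Here an unadjusted p under 0.05 was reached by Spred1 and Spry2 for Lrig1 GL (8.86% of all genes) and by Spry1, Spry4 and Dusp5 for Lgr5 GL cells (16.8% of all genes). Spry1 and Spry4 were higher, and Dusp5 was lower, at 1w pw2. DESeq2 called Spry2 and Spred1 in Lrig1 GL cells and Spry1 and Dusp5 in Lgr5 GL cells. The share of all genes that DESeq2 called in a single contrast is not given here, so nothing is read from its calls of members. From 8w pw1 to 1w pw2 no member passed by edgeR in either population, where 0.00699% and 0% of all genes did. Unadjusted p was under 0.05 for no member in the Lrig1 table (5.72% of all genes) and for Spry4 and Dusp5 in the Lgr5 table (3.83% of all genes), and DESeq2 called Dusp5.

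The 2 populations were set side by side in 1 model over the 16153 genes kept from both tables, which covered 6 members. Population and table cannot be told apart in this design, so differences in level may belong to either, while the difference between the changes against 0w removes what is constant within a table. At 0w Lgr5 GL cells had more Spry2, with 223 ± 30.2 CPM (SD, n = 3) against 50.5 ± 7.92 CPM in Lrig1 GL cells on the common scaling. Dusp6 at 0w had 132 ± 1.31 CPM in Lgr5 GL and 28.7 ± 15.1 CPM in Lrig1 GL cells, a log2 difference of -2.20 ± 0.69 for Lrig1 minus Lgr5 (edgeR adjusted p = 0.079). Spred1 at 0w was at 49.7 ± 29.8 and 50.2 ± 8.74 CPM in Lrig1 GL and Lgr5 GL cells, a difference of -0.01 ± 0.56. At later times 3 differences in level of members other than Spry2 passed, by edgeR at an adjusted p under 0.05. Spred1 at 8w pw1 was higher in Lrig1 GL cells, at 106 ± 50.5 against 30.4 ± 10.4 CPM (log2 difference 1.79 ± 0.58, adjusted p = 0.0393), where 12.5% of all genes passed. Dusp5 at 1w pw2 was also higher there, at 12.3 ± 3.83 against 1.2 ± 1.21 CPM (3.27 ± 0.99, adjusted p = 0.0401), where 6.83% of all genes passed. Dusp6 at 2w pw1 was lower there, at 14.6 ± 12.2 against 89 ± 9.66 CPM (-2.63 ± 0.71, adjusted p = 0.0477), where 1.9% did. With the GC trend removed, Dusp5 was the 1 of these 3 still past the threshold. Leaving out single libraries ended the call of Dusp6 in 32 of 36 cases, and those of Spred1 and Dusp5 in 5 each, all of them libraries of the time compared. Spry2 was lower in Lrig1 GL cells with a call at 0w, 1w, 2w and 4w pw1, where 2.9%, 3.88%, 1.9% and 3.64% of all genes passed, and without one at 8w pw1 and 1w pw2.

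For the changes against 0w, Lrig1 GL minus Lgr5 GL, 1.11% of all genes passed at 8w pw1 and 0.155% at 1w pw2, and Spry2 at 8w pw1 was the 1 member past the threshold. Its difference uses the Lrig1 GL values that chose it and is a description, equal to 1.93 ± 0.42 at 8w pw1 and 1.80 ± 0.42 at 1w pw2. This call was lost with the GC trend removed, with surrogate variables and with the replicate block. The difference for Dusp5 at 1w pw2 was larger, 5.51 ± 1.37, with all 3 Lrig1 GL libraries above and all 3 Lgr5 GL libraries below their 0w groups. The share of all genes with that pattern was not counted. The Dusp5 difference did not pass by the quasi-likelihood test (unadjusted p = 0.000364, adjusted p = 0.0816), and it passed by DESeq2 (adjusted p = 0.00202) and by the likelihood ratio test (adjusted p = 0.0055). It rests on 1 to 14 counts per Lgr5 GL library at 1w pw2 and on 0w levels of 0 to 6.04 CPM in Lrig1 GL cells. Without the second 0w library of Lrig1 GL cells it was 7.46 and passed by edgeR (adjusted p = 0.0352). Spred1 differed by 1.80 ± 0.80 at 8w pw1 (unadjusted p = 0.0321, adjusted p = 0.235), and Dusp6 by 1.81 ± 0.94 at 1w pw2 (adjusted p = 0.416). Spry1 had negative differences at these times, -1.3 ± 1.29 and -1.88 ± 1.3. By edgeR no member passed at 1w, 2w or 4w pw1, where 0.0495%, 0% and 0.0929% of all genes did, nor did any by DESeq2. Unadjusted p was under 0.05 for Dusp5 at 1w pw1, Spry2 at 2w pw1 and none at 4w pw1 (15%, 9.34% and 10.5% of all genes), for Spry2 and Spred1 at 8w pw1 and for Spry2 and Dusp5 at 1w pw2 (17.6% and 13% of all genes).

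**Figure D4:**
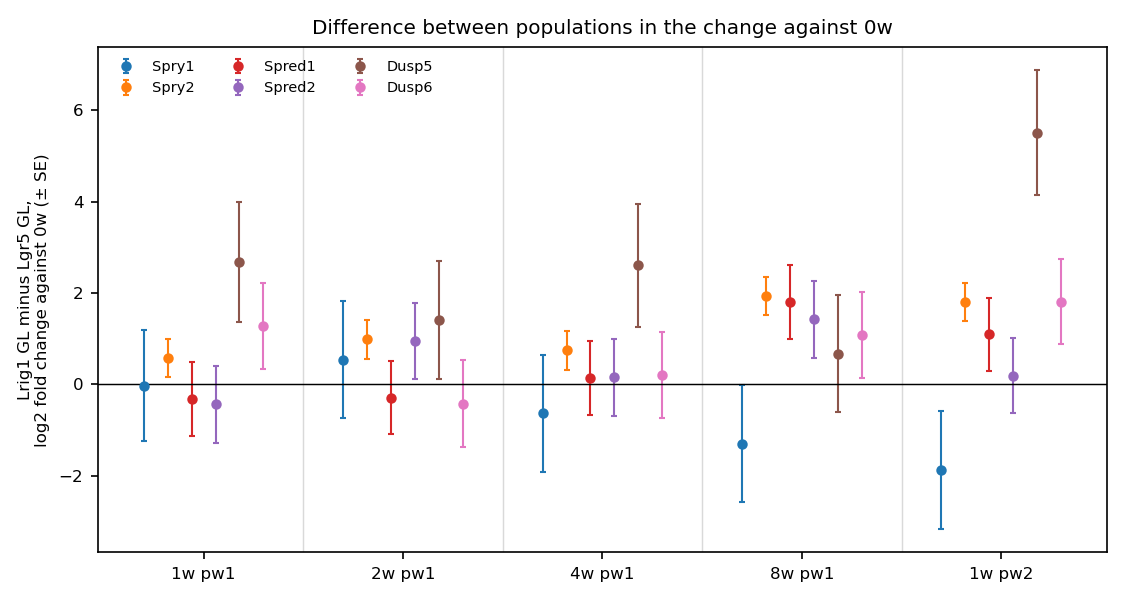
Difference between the populations in the log2 fold change against 0w, Lrig1 GL minus Lgr5 GL (vertical axis), with its SE, for the 6 members in both tables at each time. Spry2 reaches 1.93 and 1.80 at 8w pw1 and 1w pw2, and Dusp5 at 1w pw2 has the highest value, 5.51, and the widest error at that time, 1.37.

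The rest of the pathway was described from lists of its other inhibitors, receptors and kinases, ligands and target genes. Of 12 other inhibitors of receptor and Ras signalling, 1 was a DEG in Lrig1 GL cells, at 8w pw1 (2.82% of all genes) and 1w pw2 (1.23% of all genes). It was Rasa1. This gene, which like neurofibromin turns Ras off, had 76.2 ± 15 CPM (SD, n = 3) at 0w, 241 ± 29.1 CPM at 8w pw1 and 251 ± 45 CPM at 1w pw2. It rose by log2 fold changes of 1.66 ± 0.39 and 1.71 ± 0.39 (edgeR adjusted p = 0.0346 and 0.0394), at the times when Spry2 was high. With the GC trend removed they were 0.65 and 0.83 and did not pass (adjusted p = 0.418 and 0.35). None of the 12 was a DEG by edgeR in Lgr5 GL cells (1 had an unadjusted p under 0.05 across the time course, where 16.9% of all genes did), and at 1w pw2 the list's median log2 fold change against 0w was 0.12. Of the 9 other Sprouty, Spred and Dusp genes, 6 and 8 were tested in the 2 populations, and edgeR called none across the time course, with 1 and 2 at an unadjusted p under 0.05 (20.5% and 16.9% of all genes).

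Of the 31 genes from receptor to ERK, all tested, Met rose at both late times and Hras fell at 8w pw1 in Lrig1 GL cells, where 2.82% (8w pw1) and 1.23% (1w pw2) of all genes were DEGs. An unadjusted edgeR p under 0.05 was reached there by 11 of the 31 across the time course (20.5% of all genes). At 8w pw1 it was reached by 13 (22.9% of all genes) and at 1w pw2 by 9 (18.5% of all genes). Met, the receptor for hepatocyte growth factor, went from 16.9 ± 7.3 CPM at 0w to 98.2 ± 46.7 CPM at 8w pw1 and 116 ± 47.4 CPM at 1w pw2 (log2 fold changes 2.55 ± 0.66 and 2.79 ± 0.66, edgeR adjusted p = 0.0458 and 0.0482). Hras, one of the classical Ras genes, fell from 224 ± 28.9 to 99.8 ± 40.3 CPM at 8w pw1 (log2 fold change -1.17 ± 0.31, adjusted p = 0.0494). From 4w to 8w pw1, Braf and Egfr, the Raf kinase and the epidermal growth factor receptor, rose by 2.74 and 1.85 (adjusted p = 0.0299 and 0.0368), 2 genes named after their values were seen, where 3.74% of all genes passed. These are the libraries with the GC shift and, at 8w pw1, the mitochondrial excess given above. With the GC trend removed none of these calls held: Met was at 2.03 and 2.30, Hras at -0.72, Braf at 1.95 and Egfr at 1.28 (edgeR adjusted p = 0.106 to 0.205). With mitochondrial genes left out of the library sizes all of them held. None of the 31 was a DEG by edgeR in Lgr5 GL cells, where 3 had an unadjusted p under 0.05 across the time course (16.9% of all genes), with median changes between -0.34 and 0.12 at the 5 times.

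Among ERK target genes, 4 of 23 tested in Lgr5 GL cells were DEGs across the time course (Jun, Ccnd1, Ier2 and Ier3), where 1.13% of all genes were, and 1 of 21 in Lrig1 GL cells (Junb), where 1.62% were. At an unadjusted p under 0.05 the edgeR time course test held 15 of the 23 (16.9% of all genes) and 8 of the 21 (20.5% of all genes). Jun, a subunit of AP-1, had 184 ± 42.8 CPM at 0w, 213 ± 78.3 CPM at 1w pw1, 523 ± 117 CPM at 8w pw1 and 888 ± 175 CPM at 1w pw2, and it was higher after the second than after the first wound by 2.06 ± 0.34 (edgeR adjusted p = 0.0149). Ccnd1, which encodes cyclin D1, rose from 34.2 ± 5.77 CPM at 0w to 114 ± 18.7 CPM at 4w pw1 (log2 fold change 1.74 ± 0.31, adjusted p = 0.0319). Its other means were 78.6 ± 16.8 CPM at 1w pw1, 101 ± 22.6 CPM at 2w pw1, 48.5 ± 13.2 CPM at 8w pw1 and 100 ± 21.9 CPM at 1w pw2. Ier3 rose from 75.8 ± 10.3 CPM at 4w pw1 to 320 ± 61.6 CPM at 8w pw1, by 2.08 ± 0.36 (adjusted p = 0.0151). Ier2 was highest at 8w pw1, with 685 ± 18.1 CPM against 196 ± 37.4 CPM at 0w (edgeR adjusted p = 0.463). Junb was highest at 1w pw1 in Lrig1 GL cells, with 858 ± 383 CPM against 314 ± 37.1 CPM at 0w (edgeR adjusted p = 0.094). Neither of these changes against 0w passed. Among ligands, Fgf18, a bulge growth factor, had 45.3 ± 34.6 CPM at 0w in Lgr5 GL cells, 3.48 ± 3.55 CPM at 4w pw1 and 144 ± 15.9 CPM at 8w pw1 (8w against 4w pw1, 5.18 ± 0.84, adjusted p = 0.00915). It was the 1 of 11 tested ligands called there across the time course, and none of 8 was called in Lrig1 GL cells, where 2 had an unadjusted p under 0.05 (20.5% of all genes). Unlike those of Rasa1, Met and Hras, the calls of these target genes and of Fgf18 were not repeated under alternative settings.

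**Figure D5:**
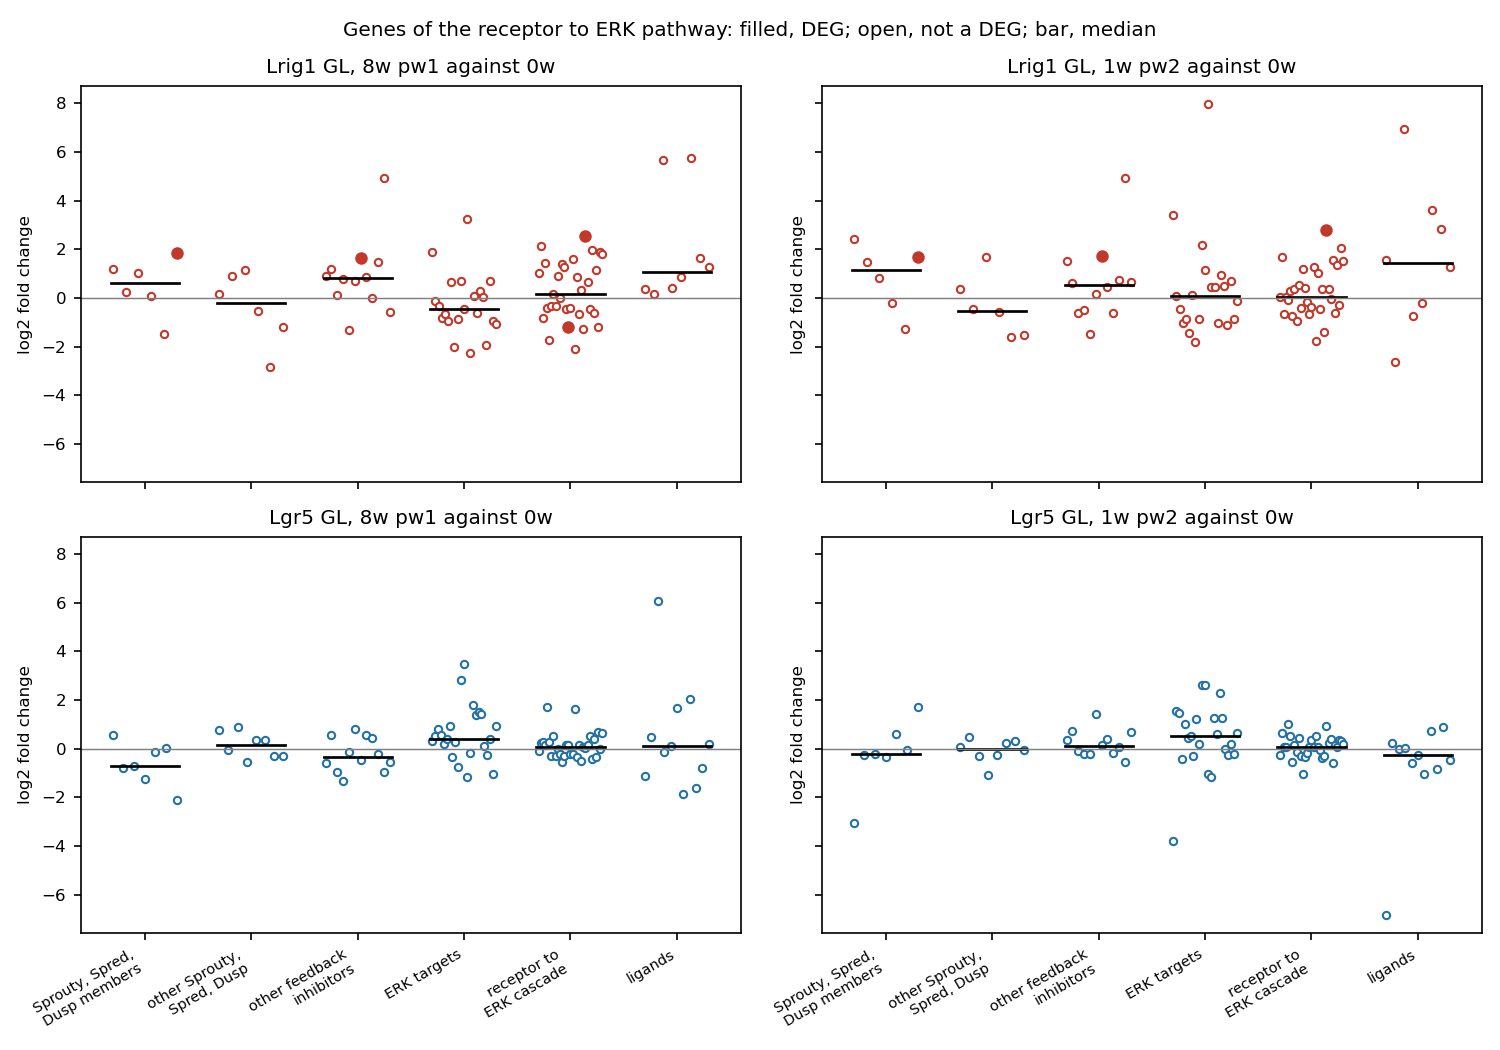
Log2 fold change against 0w (vertical axes) of every tested gene of 6 lists (horizontal axes) at 8w pw1 and 1w pw2, Lrig1 GL cells above and Lgr5 GL cells below. Filled points are DEGs, open points are not, and bars are list medians. The filled points are Spry2, Rasa1, Met and Hras in Lrig1 GL cells, with none in Lgr5 GL cells, and all of these calls are lost with the GC trend removed. Open points far from 0 include genes with no counts in some libraries, whose fitted change depends on the prior count.

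Within a population the members did not vary together as a block. Over 18 libraries, Pearson's r of log2 CPM between pairs ran from -0.457 to 0.613 for Lrig1 GL (15 pairs, median 0.0121) and from -0.48 to 0.48 for Lgr5 GL cells (21 pairs, median 0.156). The highest pair was Spry2 with Spred1 in Lrig1 GL cells. These libraries share time groups, depth and GC trend, so the values are descriptive. The genes most like Spry2 in Lrig1 GL cells, among 9320 with a mean of 10 CPM or more, were Mbtd1, Hspa4l and Rab21 (r = 0.89, 0.873 and 0.868). Among 9161 genes in Lgr5 GL cells they were Hgsnat, Serpinb10 and Eid1 (r = 0.798, 0.794 and 0.785). For Spred1 in Lrig1 GL cells they were Ptk2, Fam81a and Tgoln1 (r = 0.823, 0.82 and 0.819), and for Dusp5 they were Metap1, Pros1 and Gjb2 (r = 0.91, 0.849 and 0.842). For Dusp6 they were Tsr2, Usp40 and Larp1b in Lrig1 GL cells (r = 0.843, 0.829 and 0.809) and Atf7, Xpo7 and Ankrd39 in Lgr5 GL cells (r = 0.721, 0.67 and 0.663).

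The members are single genes at separate loci of GRCm38, given here from GENCODE M21 with starts and ends in base pairs. Spry1 lies at chr3:37639947-37644598, Spry2 at chr14:105891947-105896819, Spred1 at chr2:117121374-117182279 and Spred2 at chr11:19924375-20024026. Dusp4 lies at chr8:34807297-34819894, Dusp5 at chr19:53529109-53542431, Dusp6 at chr10:99263231-99267489 and Spry4 at chr18:38586247-38601415. All are annotated as protein coding. Their union exon lengths ran from 2087 bases for Spry2 to 6784 bases for Spred1, the lengths used for the values per kilobase.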

How the data were processed

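Full-length Smart-seq2-type libraries were made from sorted tail epidermal cells without molecular identifiers. Per the labels and the study's methods, the authors trimmed reads with Trim Galore 0.5.0, aligned them with HISAT2 2.2.01 to mm10 (GRCm38) and counted exons per gene name with featureCounts 1.6.12 on GENCODE annotation. The strand setting is not given in the sources used here. The deposited values are raw read counts per gene and library in 1 table per population.

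Libraries were grouped by the labels. Column numbers matched a labelled library for 15 of 36 columns, and the other 21 were placed by group only, as replicates a, b and c. Counts were fitted per population with edgeR 4.0.16 (R 4.3.3) after filterByExpr and trimmed-mean scaling, by quasi-likelihood tests with a prior count of 0.125 and Benjamini-Hochberg adjustment over all genes kept. The threshold was an adjusted p under 0.05, with a log2 fold change beyond 1 in either direction for contrasts against 0w. With 3 libraries against 3, an exact permutation test cannot go below p = 0.1. Alternatives used DESeq2 1.42.0, sva 3.50.0, a likelihood ratio test, other scalings, filters, a GC correction, a replicate block and each library left out. The scripts were tested on simulated counts.

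The members, gene lists and motifs were chosen with earlier results of these data known. All members are described. Of other lists, genes called across the time course or at a single time against 0w are named, at most 6 per list and population, by adjusted p. The 3 genes most like a member are those with the highest Pearson's r over 18 libraries.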

Additional observations from a re-analysis of the deposited data

Results flagged for a closer look

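For Spry2 the difference between populations at 8w pw1 was past the threshold, but it is built on the Lrig1 GL values for which the gene was chosen and is a description. Its log2 fold change against 0w in Lrig1 GL cells exceeded that in Lgr5 GL cells by 1.93. The call was lost with the GC trend removed, with both kinds of surrogate variables and with the replicate block. The Lrig1 GL libraries of 8w pw1 also held 10.9 to 14.4% mitochondrial counts, against 2.62 to 3.29% in Lgr5 GL libraries of the same time, and the part of this in the difference was not tested.

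Dusp5 was flagged because at 1w pw2 every Lrig1 GL library lay above its 0w group and every Lgr5 GL library below it. This pattern was looked for in the 6 members of both tables at every later time. At 1w pw2, 13.9% of all genes had every Lrig1 GL library above 0w. The share of all genes with opposite directions in the populations was not counted. The Dusp5 difference in log2 fold change was 5.51. It did not pass the quasi-likelihood test of the difference (edgeR adjusted p = 0.0816) and passed it without the second 0w library of Lrig1 GL cells (7.46, adjusted p = 0.0352). At 0w the order was the reverse, with 2.14 ± 2.78 CPM (SD, n = 3) in Lrig1 GL and 10.5 ± 2.33 CPM in Lgr5 GL cells on the common scaling.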

How the results depend on the processing

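Of 134 log2 fold changes and differences of members, 84 kept their sign under every alternative and 50 turned under at least 1. In Lrig1 GL cells the time course test called 1 member and the contrasts of stages 1. Both became 2 with the likelihood ratio test and with a filter at a mean of 10 CPM (Spred1 beside Spry2), and 2 and 4 with DESeq2. All 3 Lrig1 GL counts, the 2 calls against 0w included, fell to 0 with estimated surrogate variables and with 2 surrogate variables. With the GC trend removed, the time course and the single times gave 0. The Lrig1 GL time course gave 0 without the 8w pw1 libraries, an alternative chosen after seeing the data. In Lgr5 GL cells the 3 counts were 0. They became 1 (time course) and 2 (stages) with the likelihood ratio test, and 1, 1 (against 0w) and 3 with DESeq2. The difference between populations, 1 member, became 3 with the likelihood ratio test and DESeq2 and 2 with the stricter filter. It was 0 with both kinds of surrogate variables and with the GC trend removed. The 3 differences in level between populations of members other than Spry2 became 6 with the likelihood ratio test, 1 with the GC trend removed and 0 with estimated surrogate variables, alternatives chosen after seeing the data. The cause of these shifts was not tested.

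With the replicate block, Lrig1 GL calls against 0w, calls between stages and the difference between populations were each 0, and the 8w pw1 change of Spry2 was 1.90. Same-numbered libraries did not deviate together (mean r = -0.00644 and 0.00393), and 2 and 5 of 18 libraries correlated best with their own number, so the numbers were not taken as pairs.

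Leaving out 1 library gave 1 to 2 calls across the Lrig1 GL time course, 0 to 2 against 0w, 0 to 2 between stages and 0 to 2 between populations. Spry2 at 8w pw1 lost its call without the first 0w library (log2 fold change 2.00) or 8w pw1 library a (1.65), and its 8w pw1 difference from 4w pw1 without 4w pw1 library a or b or 8w pw1 library a. Its 1w pw2 call was lost without any 1 of the 3 libraries of 0w or of 1w pw2. The population difference gave 0 without 8w pw1 library a or c of Lrig1 GL, 0w library c of Lgr5 GL or any 8w pw1 library of Lgr5 GL, and 2 (Dusp5 at 1w pw2 added) without 0w library 2 of Lrig1 GL. Differences in level gave 1 to 4. That of Spred1 was lost without 8w pw1 library b or c of Lrig1 GL or any of Lgr5 GL, that of Dusp5 without any 1w pw2 library of Lrig1 GL or 1w pw2 library 1 or 3 of Lgr5 GL, and that of Dusp6 under 32 of the 36 omissions.

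Over all genes, time course calls of 232 (Lrig1 GL) and 203 (Lgr5 GL) became 1999 and 1975 with the likelihood ratio test, 1997 and 1838 with DESeq2, 477 and 391 with the stricter filter, 8 and 12 with estimated and 9 and 78 with 2 surrogate variables, and 16 and 46 with the block. They were 149 in Lrig1 GL cells with no filter and 58 with the GC trend removed. Without the 8w pw1 libraries they were 5 and 65. With 1 library left out they ran from 47 (8w pw1 library a) to 477 (2w pw1 library c) in Lrig1 GL and from 89 (4w pw1 library c) to 294 (4w pw1 library a) in Lgr5 GL cells, so the shares of all genes set beside the members' counts move as much. Low counts limit Dusp4 and Spry4, with 15 and 7 of 18 libraries at 3 counts or fewer, and less often Dusp5, with 2 of 18 in each population.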
